A study of Danio rerio with 18 samples.

Results

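The comparison set 3 kidney libraries of chd8-/- zebrafish against 3 kidney libraries of germ-free (GF) wild-type zebrafish, 6 of the 18 libraries of the series, joined by gene identifier over all genes of the tables. All 6 came from the AB strain at 7 days after fertilization, and the kidneys were dissected with tweezers from larvae kept in an RNA preservative. GF larvae were wild type; as embryos they were washed in polyvinylpyrrolidone and hypochlorite, kept for some hours in medium with antibiotics and then raised in sterile medium, and their parents had mated in autoclaved water. The chd8-/- larvae were not made germ-free, and their parents had mated in circulating system water. Rearing, breeding water, genotype and the block in which the samples were listed therefore differ together between the groups and cannot be told apart. The labels give 50 GF and about 70 chd8-/- larvae without saying whether these are per library, whether replicates came from separate clutches, or which chd8 allele or line was used. The p-values below therefore measure only the spread between these libraries, which may be technical.

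CHD8 is a chromatin remodelling enzyme of the chromodomain helicase family, known for binding beta-catenin and restraining Wnt target genes, and its human gene is known from mutations in autism. The zebrafish kidney filters blood through podocytes and tubules, and it also holds the blood-forming marrow of the fish. A larva without microbes is known to differ from a colonised one in gut, immune and metabolic gene expression.

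The 6 libraries held between 27628218 and 31268453 counts. A marker of the labelled tissue was present in each: CDH17, a cadherin of the kidney tubule, lay between 190.4 and 325 CPM (counts scaled to library size across the kidney libraries). Markers of other organs were also present in all 6, among them fast muscle actc1b at 15730 to 26640 CPM and pancreatic prss1, a trypsin, at 7637 to 14950 CPM. In such bulk tissue, fewer cells of a type and less RNA per cell cannot be told apart.

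The libraries did not group by label. Over the 500 genes that varied most among the 6 libraries, GF replicates 1 and 3 differed from each other by a root mean square of 1.28 on the log2 scale, and the library labelled chd8-/- replicate 1 differed from them by 1.64 and 1.68. The library labelled GF replicate 2 differed from chd8-/- replicates 2 and 3 by 1.39 and 2.11, and those replicates differed from each other by 2.01. Between libraries of the same label the distances were larger. The library labelled GF replicate 2 lay 3.06 and 3.13 from the other GF libraries, and the library labelled chd8-/- replicate 1 lay 3.08 and 3.55 from the other chd8-/- libraries. No pair of replicates was a repeat of the same library, as their counts differed by a chi-square of 16.5 to 148 per degree of freedom. Results are therefore given for all 6 libraries, and many also without the libraries labelled GF replicate 2 and chd8-/- replicate 1. Those were left out because of what they measured, so the values and adjusted p-values of the remaining 4 libraries describe them and do not stand as a test of the labels.

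**Figure D1:**
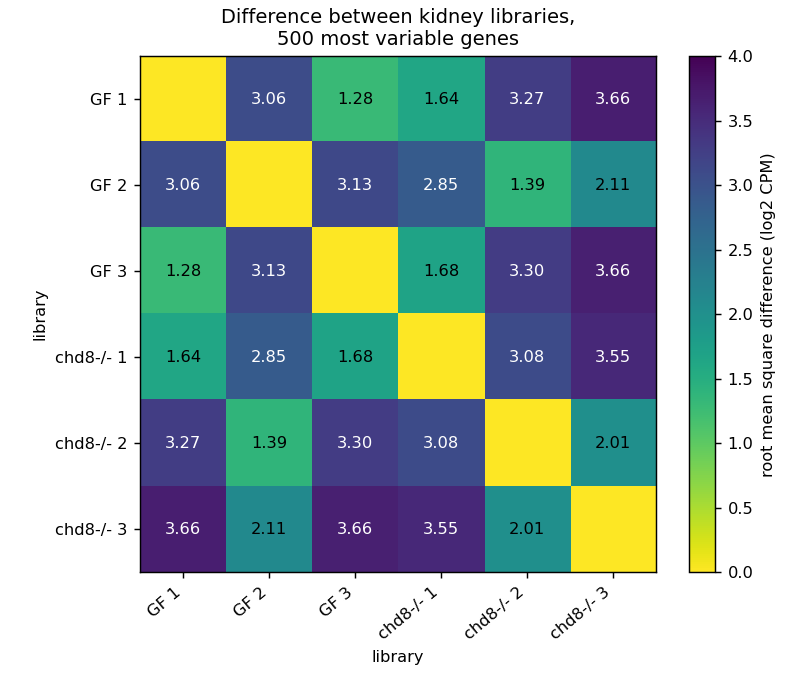
Differences between the 6 kidney libraries, as the root mean square difference in log2 CPM over the 500 genes that varied most; rows and columns are libraries and the colour and printed value give the difference. GF 1, GF 3 and chd8-/- 1 lie 1.28 to 1.68 from each other, and GF 2 lies 1.39 from chd8-/- 2 and 3.06 from GF 1.

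CHD8 itself was measured at 53.2, 31.4 and 53.2 CPM in GF replicates 1 to 3 and at 28.2, 33.8 and 37.9 CPM in chd8-/- replicates 1 to 3. The chd8-/- libraries were all low, but the library labelled GF replicate 2 lay among them, so the groups overlapped. The 3 conventionally raised (CV) wild-type kidneys held 45.4 to 50.7 CPM, above that library and below the other GF libraries. The difference of chd8-/- minus GF was −0.47 ± 0.24 (log2 fold change ± SE, n = 3 libraries per group), with an adjusted p of 0.972 in edgeR's quasi-likelihood test with Benjamini-Hochberg adjustment. Without the 2 libraries it was −0.57 ± 0.13, with an adjusted p of 0.00996. In the intestine libraries of the series, taken at another age, CHD8 was at 58.6 to 64.9 CPM in GF and at 32.2 to 41.3 CPM in chd8-/-, with no overlap. By this transcript, the library labelled GF replicate 2 went against its label and the library labelled chd8-/- replicate 1 did not. Counts summed over a whole gene do not show whether its transcripts are intact.

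Genes next to chd8 in the RefSeq order of the GRCz12tu assembly were taken as a further view of that chromosome region. Of 26 measured protein-coding genes up to 20 places away on either side, 2 (7.69%) were apart in the 6 libraries, against 7.53% of all genes, and 5 (19.2%) were called in the 4 libraries, against 19.2% of all genes. Those apart were acin1a, a splicing factor gene, at 162 to 190.4 CPM in GF and 195 to 205 CPM in chd8-/-, and homeza, a homeobox gene, at 6.88 to 10.4 CPM against 10.9 to 21.6 CPM. In the 4 libraries, tep1, which encodes a telomerase-associated protein, was lower in chd8-/- by a log2 fold change of −2.15, against −0.52 in the 6 libraries. It was at 1.44 CPM in the library labelled GF replicate 2, against 2.64 and 3.03 CPM in the other GF libraries. The library labelled chd8-/- replicate 1 was the highest of the 6, at 3.69 CPM, against 0.426 and 0.849 CPM in chd8-/- replicates 2 and 3. In the 4 libraries cbln9, a cerebellin family gene, was higher by 2.08. For cbln9 the library labelled GF replicate 2 read 12.9 CPM against 2.98 and 2.34 CPM in the other GF libraries, and the library labelled chd8-/- replicate 1 read 4.41 CPM against 8.62 and 13.8 CPM. Smaller called differences were at homeza, hnrnpc and psmb5, with log2 fold changes of 1.18, 0.57 and 0.46.

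Across all 6 libraries, no gene of 21126 tested passed the threshold of an adjusted p of 0.05 in edgeR (0.00% called), and 675 had an unadjusted p under 0.05 (3.2%). The limma voom test called 0 genes and DESeq2 called 6 of 27617 (0.0217%). Those 6 were TYRP1, DCT, CYP51A1 and cldc1, all higher in chd8-/-, and GPM6A and si:ch211-196f5.2, lower. The groups did not overlap for 1591 genes (7.53%), of which 774 were higher in chd8-/- (3.66%) and 817 were lower (3.87%). The genes described next are those with the lowest p in this fit, 12 in each direction, with members of gene lists beside them; since none passed in edgeR, they are given by their values.

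Some melanin genes followed the labels in all 6 libraries. TYRP1, a melanosomal enzyme, was at 6.26, 10.5 and 8.96 CPM in GF and 19.82, 21.6 and 38.2 CPM in chd8-/-, a log2 fold change of 1.63 ± 0.31 (SE). DCT, the dopachrome tautomerase of melanin synthesis, was at 0.609, 0.686 and 0.724 CPM against 1.75, 3.28 and 4.46 CPM, or 2.22 ± 0.44. The amyloid of the melanosome, pmela, was at 6.80, 7.00 and 10.9 CPM against 17.0, 17.3 and 26.7 CPM, or 1.301 ± 0.27. Here the libraries labelled GF replicate 2 and chd8-/- replicate 1 sat with their own labels. SLC45A2, a melanosome transporter named after its values were seen, was also apart, at 4.70 to 6.65 CPM against 6.84 to 13.4 CPM. Their adjusted p in DESeq2 was 0.0279 for TYRP1, 0.0385 for DCT and 0.0788 for pmela. TYR, the tyrosinase itself and also named after its values were seen, overlapped, at 2.64 to 7.00 CPM against 2.43 to 6.79 CPM, and a second TYRP1 gene overlapped too. A list of pigment cell genes was written after these values were seen: 4 of its 25 measured genes were apart and higher, 1 was apart and lower, and its median log2 fold change was 0.13, against 0.00055 for all genes tested. Among all genes, 3.66% were apart and higher and 3.87% apart and lower. As the list followed the values, its counts are no separate support. In intestine the levels of TYRP1 and DCT overlapped between the groups.

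Some sterol synthesis genes also followed the labels, though their list as a whole did not. CYP51A1, the lanosterol demethylase, was at 5.31, 6.61 and 4.12 CPM in GF and at 14.3, 14.7 and 10.7 CPM in chd8-/-, a log2 fold change of 1.31 ± 0.25 (SE). The sterol sensor insig1 was at 7.51 to 19.02 CPM against 22.3 to 26.8 CPM. MVD, the mevalonate decarboxylase, was at 0.757 to 1.73 CPM against 1.88 to 3.87 CPM. Among all genes, 3.66% were apart and higher and 3.87% apart and lower. Of 44 measured genes of cholesterol and lipid synthesis, 5 were apart and higher and 1 was apart and lower, 39 had a positive log2 fold change, and the median was 0.29. The mean deviation of the list (log2) was −0.10 in the library labelled chd8-/- replicate 1, below the 0.0026 of the library labelled GF replicate 2. In the 4 libraries 21 of the 44 genes were called higher and 2 lower, against 10.0% and 9.16% of all genes. Of these called genes, 8 had both left-out libraries off their label and 0 had both on it. Among all genes called there, 52.6% had both off their label and 2.49% had both on it. The off-label and on-label counts therefore do not set the list apart. In intestine, CYP51A1 was instead lower in chd8-/-, at 59.4 to 84.4 CPM against 89.0 to 99.7 CPM in GF, with no overlap.

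Of 45 measured antioxidant and xenobiotic response genes, 7 were apart and higher and 1 apart and lower, against 3.66% and 3.87% of all genes. The median log2 fold change of the list was 0.29. CYP1B1, a monooxygenase induced through the aryl hydrocarbon receptor, was at 1.56, 1.84 and 1.05 CPM in GF and 2.75, 4.20 and 5.48 CPM in chd8-/- (log2 fold change 1.48 ± 0.38 SE), and ahrra, a repressor of that receptor, was at 0.724 to 1.62 CPM against 1.75 to 4.70 CPM. HMOX1, the heme oxygenase, was at 2.96 to 5.40 CPM against 6.85 to 8.68 CPM. CYP1B1 was lower in chd8-/- than in GF intestine, at 1.11 to 1.41 CPM against 1.46 to 2.35 CPM.

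The other genes of lowest p that were higher in chd8-/- had mixed roles. cldc1 was at 6.97, 8.41 and 8.36 CPM in GF and 13.8, 18.2 and 21.2 CPM in chd8-/-, a log2 fold change of 1.16 ± 0.21 (SE). fthl28, a ferritin heavy chain-like gene, was at 6.75 to 8.48 CPM against 10.4 to 17.4 CPM. DUSP4, a phosphatase of MAP kinases, was at 11.7 to 17.1 CPM against 19.9 to 31.7 CPM. Junction genes were among them: CLDN2, a tight junction claudin, was at 2.199 to 4.12 CPM against 4.98 to 8.42 CPM, and gjb9a, a connexin, was at 0.541 to 0.794 CPM against 1.199 to 3.15 CPM. The remaining pair were si:ch211-285j16.4, at 37.8 to 52.7 CPM against 68.6 to 78.8 CPM, and si:dkey-238d18.3, at 0 to 0.0677 CPM against 0.459 to 0.810 CPM, where 3 counts correspond to 0.0972 to 0.108 CPM.

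**Figure D2:**
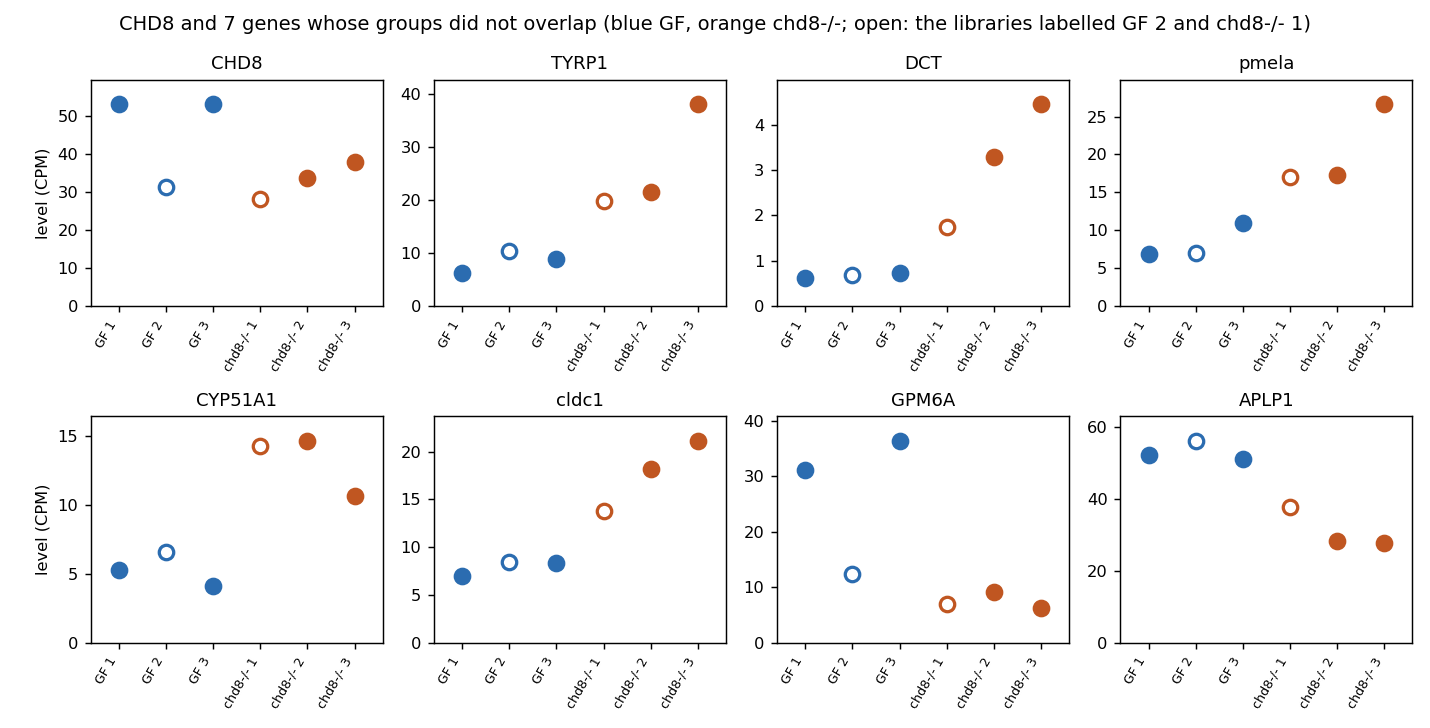
Levels of CHD8 and of 7 genes whose groups did not overlap, in CPM from a zero baseline, for each of the 6 kidney libraries (blue GF, orange chd8-/-, open circles the libraries labelled GF replicate 2 and chd8-/- replicate 1). CHD8 in GF 2, at 31.4 CPM, lies among the chd8-/- libraries, whereas for TYRP1, CYP51A1 and APLP1 every library lies with its label.

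Of the 12 genes of lowest p that were lower in chd8-/-, several are genes of neurons and muscle. GPM6A, a neuronal membrane glycoprotein and 1 of 2 genes with that symbol, was at 31.1, 12.5 and 36.5 CPM in GF and at 7.03, 9.18 and 6.23 CPM in chd8-/-, a log2 fold change of −1.83 ± 0.39 (SE). APLP1, an amyloid precursor-like protein, was at 52.3, 56.16 and 51.1 CPM against 37.7, 28.3 and 27.59 CPM, or −0.77 ± 0.18. APLP1 was also apart and lower in chd8-/- intestine, at 30.7 to 35.7 CPM against 48.9 to 69.5 CPM; it was the only 1 of these 24 genes to do so in the same direction. PTPN5, a phosphatase of striatal neurons in mammals, was at 2.92 to 4.03 CPM against 0.884 to 1.75 CPM. SLC1A2, a glutamate transporter of glia, was at 25.8, 2.64 and 26.7 CPM against 0.551, 2.82 and 0.849 CPM, so the groups overlapped through the library labelled GF replicate 2. The vimentin-related gene vimr1 was at 25.7 to 89.2 CPM against 12.9 to 20.3 CPM. The LC3-like gene map1lc3cl was at 11.84 to 20.8 CPM against 5.703 to 8.58 CPM. si:ch211-196f5.2 was at 9.30 to 17.4 CPM against 3.28 to 4.83 CPM, with a log2 fold change of −1.65 ± 0.32. The rest were pln1, C7H4orf54, ngs and zgc:113232, with log2 fold changes of −1.57, −0.77, −1.75 and −1.89.

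Some heart and neuronal genes showed a second arrangement, in which GF replicates 1 and 3 were high and the other 4 libraries were low. MYH7, a slow and cardiac myosin heavy chain, was at 50.0, 4.87 and 49.2 CPM in GF and 3.82, 4.06 and 2.44 CPM in chd8-/-. MYL7, the atrial myosin light chain, was at 14.3, 0.289 and 20.5 CPM against 0.842, 1.38 and 0.990 CPM. TNNT2, cardiac troponin T, was at 6.23, 0.686 and 12.02 CPM against 1.18 to 1.49 CPM. The muscle list that holds these heart genes did not share the arrangement: its mean deviation (log2) was 0.38 and 0.48 in GF replicates 1 and 3 and 0.20 in the library labelled chd8-/- replicate 1, against −0.52 to −0.24 in the other 3, and its atrial gene myl4 was at 22.3 CPM in that chd8-/- library. The neuronal genes STMN1 and sncb had the same shape as MYH7. STMN1, a microtubule regulator, was at 25.8, 9.93 and 24.7 CPM against 10, 9.18 and 8.701 CPM. sncb, a synuclein, was at 6.09, 2.13 and 5.30 CPM against 0.885 to 2.07 CPM. Of 36 measured genes of neurons, glia and retina, 5 were apart and lower and none higher, against 3.87% and 3.66% of all genes. The median log2 fold change of the list was −0.69. The mean deviation of that list from its 6-library mean was 0.85 and 0.40 in GF replicates 1 and 3 and between −0.52 and −0.18 in the other 4 libraries. How much heart or nervous tissue each dissection held was not tested.

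Ribosomal protein and mitochondrial genes were slightly higher in every chd8-/- library as a group. Of 73 measured genes of cytosolic ribosomal proteins, 27 were apart and higher and 0 apart and lower, 70 had a positive log2 fold change, and the median was 0.18. Among all genes, 3.66% were apart and higher and 3.87% apart and lower. In the 4 libraries 7 of the 73 were called higher, near the 10.0% of all genes, and 1 was called lower. RPS21 was at 373, 390.2 and 384 CPM in GF and at 489, 442 and 474 CPM in chd8-/-, a difference of 0.29 ± 0.15 (log2, SE). All 13 genes encoded in the mitochondrial genome had positive values, 8 of them were apart and higher, and the median was 0.29. In the 4 libraries 6 of these 13 were called higher and 0 lower. MT-CO3, a cytochrome oxidase subunit, was at 3917, 4614 and 4319 CPM against 5166, 5723 and 5726 CPM. These medians fell to 0.12 and 0.23 when counts were scaled by library size only, which also moved the median of all genes to −0.06.

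Of other lists, some members followed the labels, where 3.66% of all genes were apart and higher and 3.87% apart and lower. Of 49 measured skin genes 7 were apart and higher, among them the tight junction gene cldnb, at 42.1 to 48.7 CPM against 56.6 to 166.9 CPM. Of 43 unfolded protein response genes 5 were apart and higher, among them DDIT3, a stress transcription factor, at 31.1 to 35.9 CPM against 38.3 to 52.6 CPM. Of 29 podocyte genes 3 were apart and lower, among them MAGI2, a slit diaphragm scaffold, at 9.49 to 13.8 CPM against 6.47 to 8.84 CPM. Of 41 p53 target genes 4 were apart and higher, among them CASP9, a caspase, at 5.30 to 6.64 CPM against 8.75 to 11.7 CPM. Of 45 Wnt target and feedback genes, the class that CHD8 is known to restrain, 1 was apart and higher, cdx1a, an intestinal homeobox gene, at 0.541 to 1.37 CPM against 1.64 to 1.98 CPM, a share below that of all genes, and the list's median was −0.05.

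Without the 2 libraries, chd8-/- replicates 2 and 3 differed strongly from GF replicates 1 and 3. edgeR called 4091 of 21355 genes (19.2%), 2135 higher in chd8-/- (10.0%) and 1956 lower (9.16%). Of these, 1943 differed by at least 2-fold and 651 by at least 4-fold, 257 of the latter higher and 394 lower. For most called genes the 2 libraries that had been left out lay with the other label. Those libraries were left out for resembling the other group, so the shares that follow describe that choice and are no separate support for it. The library labelled GF replicate 2 was nearer to the chd8-/- pair for 3181 of the 4091 genes (77.8%), and the library labelled chd8-/- replicate 1 was nearer to the GF pair for 2958 (72.3%). Both lay off their label for 2150 genes (52.6%) and both on it for 102 (2.49%). Among the 17264 genes not called, both lay off their label for 27.57% and on it for 11.63%. Among the 651 genes of at least 4-fold difference, the shares were 64.7% and 2.15%. Of the 4091, 303 genes kept the groups of all 6 libraries apart, a share near the 7.53% of all genes.

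The genes of lowest p in the 4 libraries showed this arrangement at single genes, and the choice of libraries shaped which genes these were. loc100334908 was at 0.169, 99.7 and 0.0659 CPM in GF replicates 1 to 3 and at 0.486, 127 and 101 CPM in chd8-/- replicates 1 to 3. It was near absent in GF replicates 1 and 3 and in the library labelled chd8-/- replicate 1, and abundant in the rest, and the 6-library log2 fold change was 1.197 ± 2.13 (SE). si:ch211-209l18.4 had no count in GF replicates 1 and 3 or in the library labelled chd8-/- replicate 1, which allows up to 0.0972 to 0.102 CPM at 3 counts, and was at 22.8 CPM in the library labelled GF replicate 2 and 22.0 and 15.1 CPM in chd8-/- replicates 2 and 3. All 3 CV kidneys also held no count of it, and held 0.0356 to 0.234 CPM of loc100334908.

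Named genes of known role took a similar shape. c7b, a complement component of the membrane attack complex, was at 3.89, 28.0 and 4.61 CPM in GF and 2.98, 144.8 and 155.5 CPM in chd8-/-, so the library labelled GF replicate 2 was intermediate. agrp, the agouti-related peptide that promotes feeding, was at 5.24, 20.3 and 4.58 CPM against 3.82, 36.5 and 29.7 CPM. noxo1a, which organises an NADPH oxidase, was at 1.73, 10.6 and 1.68 CPM against 1.59, 22.1 and 26.1 CPM. In all 3 the library labelled chd8-/- replicate 1 was the lowest of the 6. SLC4A1, an anion exchanger and 1 of 2 genes with that symbol, was at 14.8, 41.3 and 13.6 CPM against 16.1, 64.8 and 62.5 CPM. The elastase cela1.2 was at 23.9, 105 and 20.5 CPM against 30.1, 114 and 109.5 CPM. Of the higher genes, igfbp1b, an insulin-like growth factor binding protein, differed in shape: it was at 32.3, 128 and 36.4 CPM against 211, 168 and 178 CPM, so both left-out libraries were high and the groups did not overlap. Others of the 12 higher genes were si:ch211-240l19.8, si:ch73-14h1.2, and the neighbouring names si:dkey-14d8.6 and si:dkey-14d8.7, which may be near copies. For that last pair the library labelled chd8-/- replicate 1 was intermediate, at 562.5 CPM of si:dkey-14d8.6 against 215 to 262 CPM in GF replicates 1 and 3 and 916 to 951 CPM in the rest.

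Among the lower genes, smyd2b, a lysine methyltransferase, was at 80.4, 19.5 and 79.9 CPM in GF and 74.6 CPM in chd8-/- replicate 1 and 12 CPM in both replicates 2 and 3. CTPS1, the CTP synthase and 1 of 2 genes with that symbol, was at 78.9, 16.9 and 78.4 CPM against 80.4, 13.0 and 11.4 CPM. tenm1, a teneurin of synapses, was at 20.9, 1.66 and 23.2 CPM against 18.8, 1.25 and 1.91 CPM. In these genes the library labelled chd8-/- replicate 1 read like GF replicates 1 and 3, and the library labelled GF replicate 2 like chd8-/- replicates 2 and 3. hapln1a, a cartilage link protein, and TNC, the matrix protein tenascin C, followed them at 44.1 and 46.2 CPM in the library labelled chd8-/- replicate 1, against 13.0 to 13.1 and 9.96 to 13.4 CPM in the other chd8-/- libraries. The annexin anxa3b was at 25.0, 4.37 and 30.3 CPM against 24.9, 4.49 and 5.09 CPM. The atrial light chain myl4 was at 19.5, 2.38 and 22.2 CPM against 22.3, 2.16 and 2.97 CPM, unlike MYH7 and MYL7, which were low in all chd8-/- libraries. The transcripts si:dkeyp-1h4.9, si:dkey-19a16.2 and si:ch73-264i18.3 had the same arrangement, the last at 13.0 to 14.1 CPM in GF replicates 1 and 3, 12.9 CPM in the library labelled chd8-/- replicate 1 and 0.0656 to 0.248 CPM in the rest.

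**Figure D3:**
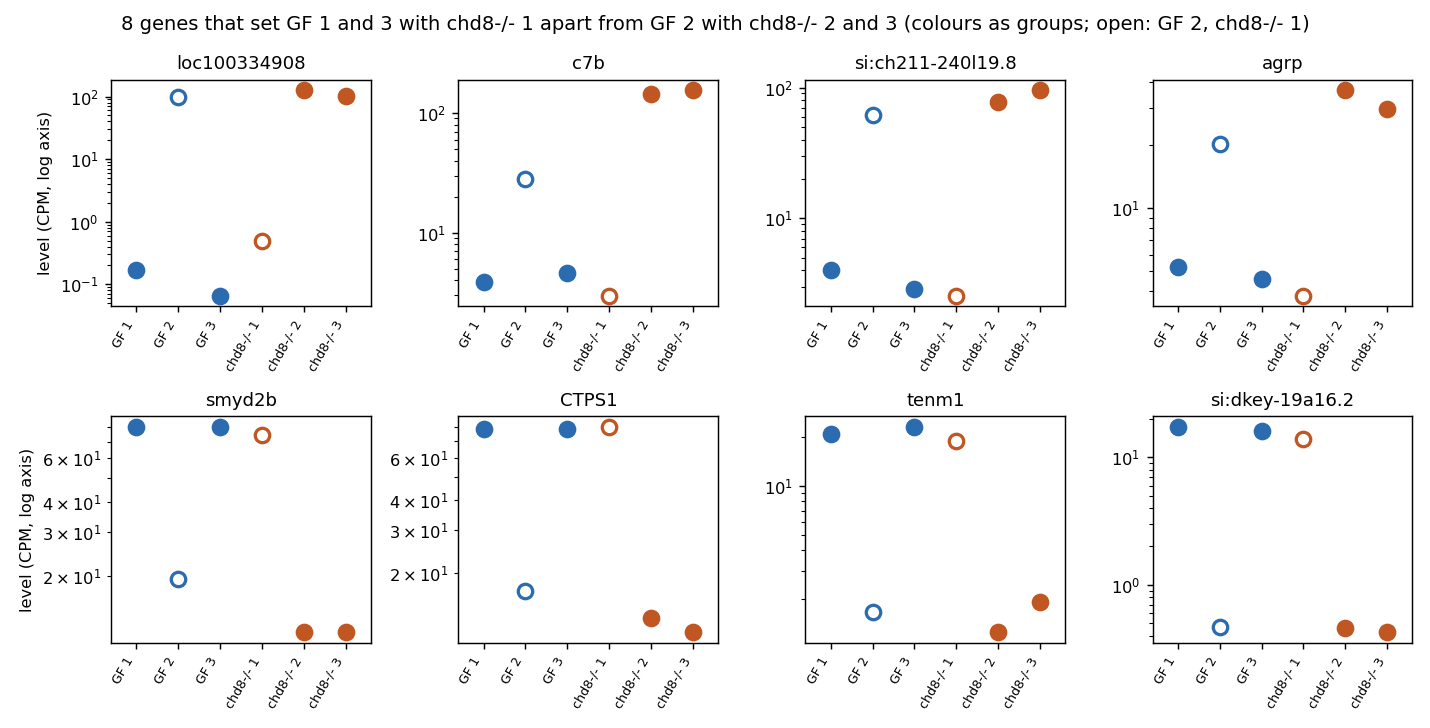
Levels of 8 genes of lowest p in the 4 libraries, in CPM on a log axis, for each of the 6 kidney libraries (blue GF, orange chd8-/-, open circles the libraries labelled GF replicate 2 and chd8-/- replicate 1). In every panel the open orange circle lies with the filled blue ones, as for tenm1, at 18.8 CPM in chd8-/- 1. The open blue circle lies with the filled orange ones, as for tenm1 at 1.66 CPM in GF 2, except for c7b. There it is intermediate, at 28.0 CPM.

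The intestine libraries, which the choice of these genes did not use, were read for the same genes. They were taken at another age than the kidney libraries, though GF and chd8-/- intestine were of the same age. Tissue and age therefore differ together between kidney and intestine, and where these differ, the part of each was not tested. Of the 24 genes of lowest p in the 4 kidney libraries, 17 (70.8%) were apart between chd8-/- and GF intestine in the direction of chd8-/- replicates 2 and 3 against GF replicates 1 and 3, and 1, c7b, was apart in the opposite direction. loc100334908 was at 0.0809, 0.787 and 0.290 CPM in GF intestine and 45.4, 36.0 and 37.6 CPM in chd8-/- intestine. tenm1 was at 14.3, 26.7 and 28.0 CPM against 2.05, 2.1 and 2.79 CPM. c7b was at 9.82 to 26.3 CPM against 2.58 to 3.55 CPM. The heart genes MYH7 and MYL7, and TNC, overlapped there. Among genes called at 4-fold or more in the 4 kidney libraries, 538 were measured in intestine. Of these, 290 (53.9%) were apart there in the same direction and 20 in the opposite one, or 57.6% in either direction. Of all 20921 genes measured in intestine, not chosen by size of difference, 35.0% were apart in either direction. A same-direction share of all genes was not computed. Of the 24 genes of lowest p in the 6-library fit, 1 was apart in the same direction in intestine and 4 in the opposite direction.

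**Figure D4:**
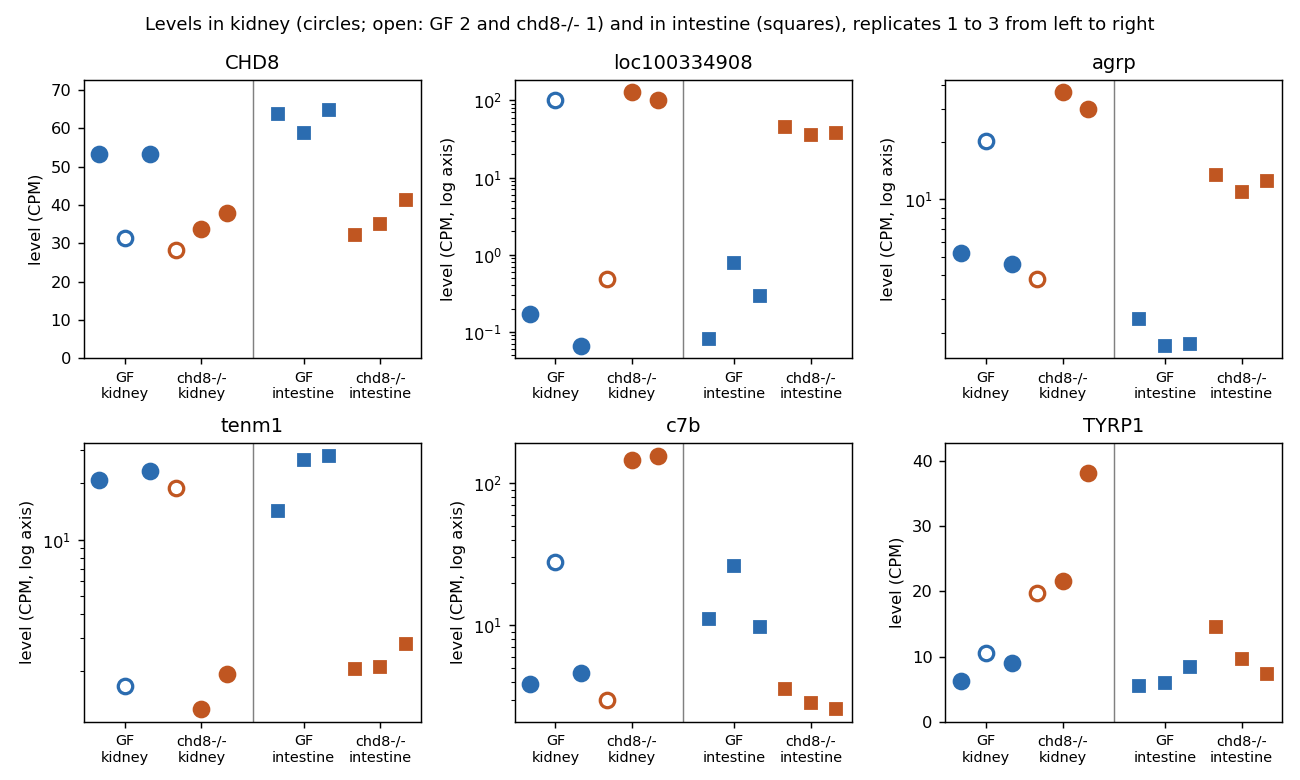
Levels of 6 genes in CPM in the GF (blue) and chd8-/- (orange) libraries of kidney (circles, open for GF replicate 2 and chd8-/- replicate 1) and intestine (squares); loc100334908, agrp, tenm1 and c7b are on a log axis. Intestine squares of loc100334908, agrp and tenm1 are apart in the same direction as the filled kidney circles. Those of c7b are apart in the opposite direction, and those of TYRP1 overlap. Intestine was taken at another age than kidney, so tissue and age differ together.

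Cell type and pathway lists were then read in both sets of libraries. Of all genes, 10.0% were called higher and 9.16% lower in the 4 libraries. In the 6 libraries, 3.66% of all genes were apart and higher and 3.87% apart and lower. Of 35 erythroid genes, 2 were apart and lower in the 6 libraries and the median log2 fold change was −0.34. In the 4 libraries 16 were lower, 1 higher and 18 not called. The 1 higher was the SLC4A1 gene described above, whose symbol 2 genes share. The erythroid name slc4a1a was matched to both of them without its last letter, and slc4a1b is a name on the ionocyte list. Which of the 2 genes the called one is was not settled, so it may not be an erythroid gene. hemgn, an erythroid nuclear factor, was at 13.2, 5.78 and 9.75 CPM in GF and 9.49, 5.51 and 4.14 CPM in chd8-/-. Globin hbae1.1, named after its values were seen, was at 15.6, 0.397 and 10.8 CPM against 14.7, 0.197 and 0.495 CPM, and the heme synthesis gene alas2, also named after its values were seen, was at 60.6, 9.93 and 32 CPM against 46.0, 7.604 and 7.25 CPM. The mean deviation of the erythroid list (log2) was 0.65, 0.26 and 0.59 in GF replicates 1 and 3 and the library labelled chd8-/- replicate 1, and −0.34, −0.56 and −0.60 in the library labelled GF replicate 2 and chd8-/- replicates 2 and 3. The transcription factor gata1a was at 5.85, 1.66 and 6.45 CPM against 4.21, 3.15 and 3.50 CPM. Of 27 genes of blood stem and progenitor cells, none was apart; RUNX1 was at 2.84, 0.866 and 3.33 CPM against 1.78, 2.29 and 2.97 CPM, and 1 gene of the list was called in the 4 libraries. Of 22 genes of lymphocytes and thymus, 2 were apart and lower, and RAG1, the recombinase of lymphocyte receptors, was at 6.50, 1.95 and 3.56 CPM against 3.17, 0.721 and 0.566 CPM.

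Ionocyte and secretory organ genes ran the other way, where 10.0% of all genes were called higher and 9.16% lower in the 4 libraries. In the 6 libraries, 3.66% of all genes were apart and higher and 3.87% apart and lower. Of 24 ionocyte genes, 14 were higher and 2 lower in the 4 libraries, and 1 was apart in the 6. The SLC4A1 gene described above may also be counted here, as the name slc4a1b is on this list. foxi3a, a transcription factor of ionocytes, was at 20.3, 42.1 and 26.5 CPM in GF and 23.3, 67.7 and 70.7 CPM in chd8-/-, and the sodium pump subunit atp1a1a.5 was at 13.7, 20.3 and 13.4 CPM against 13.1, 50.7 and 53.9 CPM. Both were low in GF replicates 1 and 3 and in the library labelled chd8-/- replicate 1. All 29 exocrine pancreas genes had positive 6-library values, with a median of 0.43, 3 were apart and higher, and 24 were higher in the 4 libraries. Of 56 liver genes 34 were higher in the 4 libraries and 1 was apart in the 6; hpxb, a hemopexin gene, was at 18.5, 39.9 and 24.7 CPM against 26.5, 94.6 and 140.8 CPM. Of 60 ribosome biogenesis genes, 38 were higher and 0 lower in the 4 libraries, and 31 of the 38 had both left-out libraries off their label. Among all genes called there, 52.6% did. nop53, a ribosome assembly factor, was at 390, 461 and 409 CPM against 346, 609 and 593 CPM. The amount of pancreas, liver or skin in each dissection was not tested.

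Many matrix and muscle genes were lower in the 4 libraries, where 9.16% of all genes were called lower and 10.0% higher. Of 50 fibroblast and matrix genes 25 were lower and 3 higher, with TGFBI, a matrix adhesion protein, at 147, 100.2 and 155 CPM in GF and 114.5, 54.4 and 42.2 CPM in chd8-/-. In the 6 libraries 2 of 50 muscle genes were apart and lower, against 3.87% of all genes, and the median was −0.28. In the 4 libraries 32 of the 50 were lower and 1 higher. Of 51 fatty acid oxidation genes 18 were lower, 5 higher, which is near the share of all genes, and 28 not called. UCP1, an uncoupling protein of mitochondria, was among the higher ones, at 1229, 2658 and 1618 CPM against 2288, 2913 and 4338 CPM. The fatty acid oxidation list was highest, 0.45 above its mean, in the library labelled chd8-/- replicate 1.

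Some immune genes were higher in chd8-/- replicates 2 and 3 than in GF replicates 1 and 3, and most were not called. Of all genes, 10.0% were called higher and 9.16% lower. Of 52 interferon response genes measured in the 4 libraries 13 were higher, none lower and 39 not called. Of 49 in the 6 libraries 1 was apart and higher and 1 apart and lower, against 3.66% and 3.87% of all genes. SOCS1, a suppressor of cytokine signalling, was at 4.16, 12.9 and 4.45 CPM in GF and 4.92, 20.3 and 37.6 CPM in chd8-/-. isg15, an interferon-induced ubiquitin-like protein, was at 1.35, 4.33 and 1.71 CPM against 1.43, 3.25 and 3.08 CPM, and RSAD2, an antiviral enzyme, at 0 to 1.203 CPM in all 6, against 3.11 to 5.66 CPM in CV kidney. Of 49 inflammation genes 16 were higher, 2 lower and 31 not called. il1b, the interleukin, was at 1.83, 8.99 and 0.593 CPM against 1.199, 18.98 and 45.6 CPM, and MMP9, a gelatinase of neutrophils, at 8.76, 26.0 and 11.3 CPM against 12.6, 70.18 and 300.2 CPM. The library labelled chd8-/- replicate 1 read like GF replicates 1 and 3 for these genes. il1b, MMP9 and isg15 were not called in the 4 libraries (edgeR adjusted p of 0.0562, 0.161 and 0.0932), and SOCS1 was (0.000333). Of 45 genes of neutrophils and macrophages 7 were higher, 1 lower and 37 not called, where 10.0% of all genes were called higher. MPEG1, a macrophage perforin, was at 16.6, 25.1 and 16.9 CPM against 13.3, 37.7 and 48.0 CPM at 1 of its 2 measured genes and at 12.5 to 14.6 CPM in all 6 libraries at the other. SPI1, the myeloid factor, was at 11.7 to 16.17 CPM in GF and 11.7 to 13.9 CPM in chd8-/-.

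Glucocorticoid targets and immediate early genes were highest in chd8-/- replicate 3, with mean deviations of their lists (log2) of 0.58 and 0.87 there. FKBP5, a glucocorticoid target, was at 47.3, 69.8 and 47.7 CPM in GF and 21.0, 73.9 and 199 CPM in chd8-/-, and KLF9, another, at 62.2, 86.7 and 77.9 CPM against 53.1, 91.1 and 182.5 CPM. The library labelled chd8-/- replicate 1 was the lowest of the 6 for both, and replicate 3 the highest. The immediate early genes lay between −0.31 and 0.05 in the other 5 libraries, with ier2b at 10.7 to 15.9 CPM in GF and 19.5, 23.8 and 53.2 CPM in chd8-/-. PER1, a clock gene with 2 measured genes, was at 128, 169 and 142 CPM against 129, 219 and 249.6 CPM at 1 and at 108, 98.3 and 119 CPM against 41.9, 103 and 128 CPM at the other. Of 44 clock genes 14 were higher and 8 lower in the 4 libraries, against 10.0% and 9.16% of all genes. The mean deviation of that list was between −0.11 and 0.07 in all 6. The skin keratin krt4 was at 5217, 4268 and 5205 CPM against 5186, 4403 and 3954 CPM.

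Of 36 enterocyte genes 32 had a positive log2 fold change in the 6 libraries and 1 was apart and higher, against 3.66% of all genes. In the 4 libraries 13 were higher and 1 lower, against 10.0% and 9.16% of all genes. The mean deviation of that list (log2) was 0.57 and 0.87 in the libraries labelled GF replicate 2 and chd8-/- replicate 1, −1.16 and −0.45 in GF replicates 3 and 1, and 0.12 and 0.05 in chd8-/- replicates 2 and 3. The gene apart was apoa4b.3, a lipid transport gene of the gut, at 1.86, 2.67 and 0.263 CPM in GF and 7.06, 4.82 and 5.09 CPM in chd8-/-. In the kidney tubule list, lrp2b, a megalin receptor gene, stood at 29.4 CPM in the library labelled chd8-/- replicate 1 and at 0 to 0.947 CPM in the other 5. The intestine libraries held far more lrp2b, 451 to 667 CPM in GF and 284 to 336 CPM in chd8-/-. Of 59 tubule genes 1 was apart in each direction, against 3.66% of all genes apart and higher and 3.87% apart and lower. In the 4 libraries 12 of 60 were higher and 4 lower. PCK1, the gluconeogenic kinase, was at 102, 322 and 134 CPM against 234, 374 and 619.7 CPM. It too was more abundant in intestine, at 2458 to 2574 CPM in GF and 2277 to 2427 CPM in chd8-/-.

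**Figure D5:**
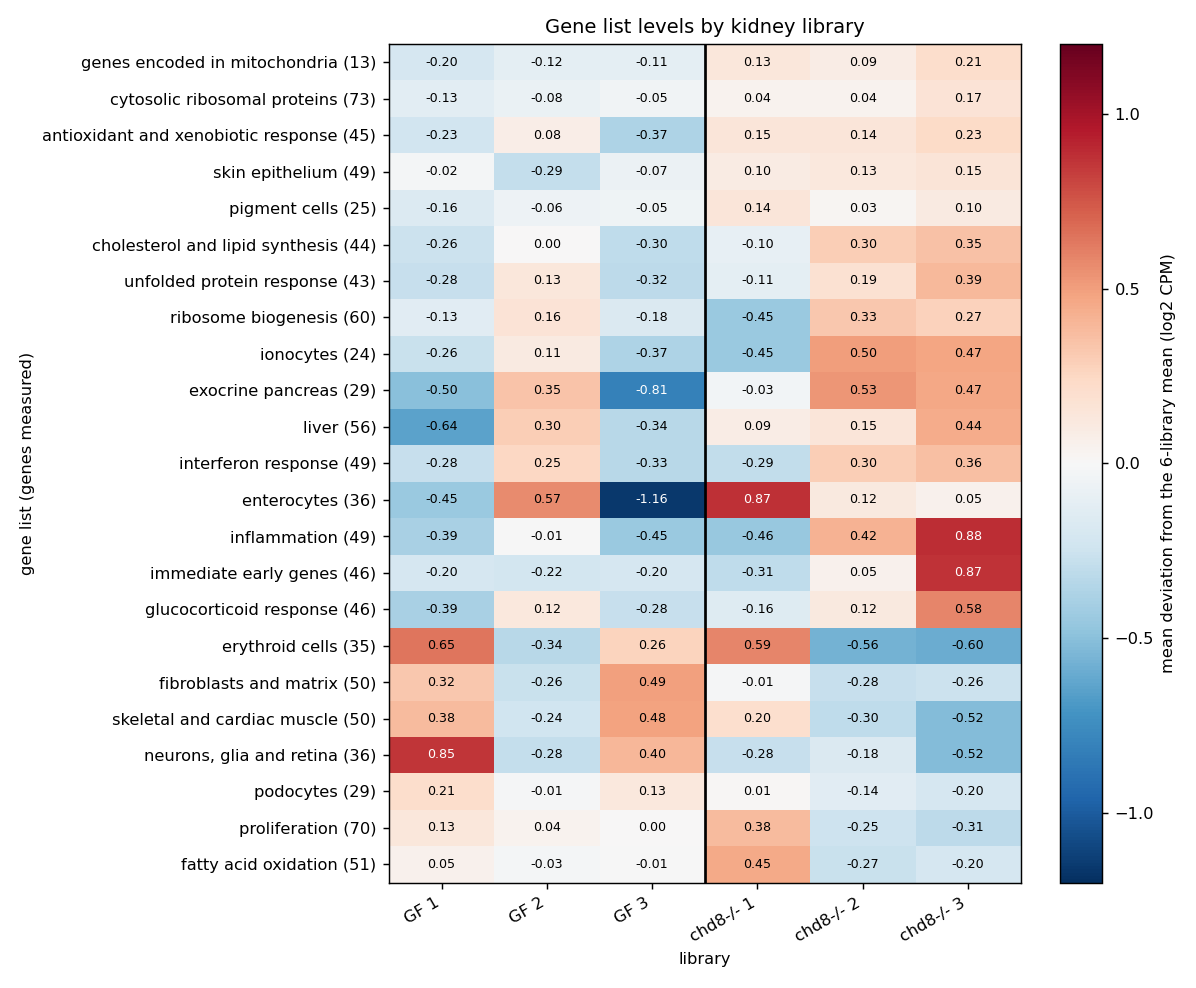
Mean deviation of each gene list from its 6-library mean, in log2 CPM, by kidney library, with the number of genes measured in brackets. Mitochondrial and ribosomal protein genes are above 0 in all chd8-/- libraries and below 0 in all GF libraries, whereas erythroid genes are high in GF 1, GF 3 and chd8-/- 1, at 0.65, 0.26 and 0.59.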

How the data were processed

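RNA libraries of the 6 kidneys were compared as the counts the authors deposited, unnormalised whole values for 32520 Ensembl identifiers. The submitters' processing notes list STAR 2.7.9a, featureCounts from Subread 2.0.1, Trim Galore 0.6.7, FastQC 0.11.9 and the build GRCz11. Not given in the sources used here were strand, annotation release and the treatment of multi-mapped reads, which leaves overlapping and near-identical genes uncertain. Depth was 27628218 to 31268453 counts per library. Of the table columns, 6 of conventionally raised intestine were not used, since equal column names held different values.

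Counts were tested as chd8-/- minus GF with edgeR 4.0.16 in R 4.3.3 (TMM scaling, filterByExpr with a minimum count of 10, robust quasi-likelihood test, Benjamini-Hochberg adjustment, threshold 0.05). DESeq2 1.42.0, limma voom (limma 3.58.1), other scalings and filters, a replicate block and left-out libraries were alternatives; the tests were checked on simulated data. Levels are CPM with TMM factors over the 9 kidney libraries; list levels use log2 CPM with a prior count of 2. "Apart" means that every chd8-/- library lay above, or every one below, every GF library. Symbols came from a table that names 29201 of the 32520 identifiers. Of 1617 list names, 168 matched no gene and 230 matched only without a final a or b. Such a name takes in every gene with the shortened symbol, so lists may hold genes not named on them.

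The members and lists were chosen with earlier results of these data known. Genes named are CHD8 and 11 further genes listed by name, the 12 of lowest p in each direction of the 6-library fit and of the 4-library fit (the latter with a mean of at least 1 CPM), and the 3 of lowest p of each list. Others are said to be named after their values were seen, or are CDH17, actc1b and prss1, given as tissue markers, and genes next to chd8, given by position. Levels between genes are not compared, since CPM is not per length. Some items are not reported here. No sequences are printed, since no sequence table came with the reference.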

Additional observations from a re-analysis of the deposited data

How the results depend on the processing

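The 3 libraries of each group did not group by label, and a gene that missed the threshold in the 6-library fit was not shown to be equal. The number of genes called was 0 under every other scaling and filter, voom, the fit without robust estimation, the fit of all 9 kidney libraries and the replicate block; DESeq2 called 6. Leaving out 1 library at a time gave 0 to 4 genes called, the 4 being MYH7, MYL7, cmlc1 and igfbp1b without GF replicate 2. Without both that library and chd8-/- replicate 1, 4091 genes were called, which the choice of libraries shaped. CHD8 was lower in chd8-/- in all of these, between −0.67 and −0.35 with 1 library left out, and passed the threshold, at −0.57, only without both.

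Whether replicate numbers pair the libraries could not be settled. Deviations from the group means correlated by 0.35, 0.33 and −0.14 for replicates 1, 2 and 3, and by −0.44 to 0.29 between libraries of unlike number. The group means include the libraries labelled GF replicate 2 and chd8-/- replicate 1, which shape these values. With the replicate block, the number of genes called was 0, 875 had an unadjusted p under 0.05 and CHD8 was at −0.44.

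Of the values of 96 other named genes under the alternatives, 1421 kept their direction and call, 84 kept their direction and passed the threshold, and 25 changed sign, none of these passing. Leaving out 1 or both libraries, FKBP5 lay between −0.21 and 1.53 and KLF9 between −0.07 (−0.068) and 0.97, both lowest without chd8-/- replicate 3. lrp2b lay between −1.49 without both libraries and 5.24, with −1.28 without chd8-/- replicate 1. The second PER1 lay between −0.58 and 0.09 (0.095, without chd8-/- replicate 1), with 0.03 without both. si:ch211-209l18.4 lay between −0.0071 without chd8-/- replicate 2 and 12.1, a fitted value against libraries without a count and so no bound. isg15 lay between −0.23 and 1.05, and SPI1 between −0.25 and 0.05 (0.053, without GF replicate 1). mhc1zba lay between −1.08 and 0.08 (0.077, without GF replicate 3). The second MPEG1 lay between −0.012 and 0.10 and came to −0.014 by library size only. RUNX1, at −0.0013 in the 6 libraries, lay between −0.39 and 0.34 with libraries left out, and came to 0.0018 with DESeq2 size factors, 0.0024 with no filter, 0.0025 in DESeq2, 0.15 with voom, 7.92e-05 with all 9 libraries and 0.15 with the replicate block. List medians that changed sign were those of fatty acid oxidation, blood stem cells, lymphocytes, endothelium, proliferation and Wnt targets, all within 0.07 of 0 in the 6 libraries. The causes were not tested.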

Other observations

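The histocompatibility genes and chd6 named here were chosen after their values were seen. Major histocompatibility genes were split between both directions in the arrangement that went against the labels. mhc1zea was at 4.74, 18.7 and 2.996 CPM in GF and 4.86, 19.6 and 18.2 CPM in chd8-/-, and mhc1zda at 4.297, 13.6 and 4.71 CPM against 3.95, 12.8 and 11.5 CPM. mhc1zba ran the other way, at 91.0, 33.3 and 110.0 CPM against 102, 48.6 and 46.0 CPM. Of 37 antigen presentation genes 9 were higher and 4 lower in the 4 libraries, where 10.0% of all genes were called higher and 9.16% lower. The lower ones were near the share of all genes.

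Among relatives of CHD8, a family of chromatin remodellers, CHD3 was at 28.3, 7.00 and 31.2 CPM in GF and 15.5, 10.29 and 10.6 CPM in chd8-/-, and chd6 at 35.7, 15.7 and 30.7 CPM against 24.8, 17.9 and 20.4 CPM. Of 11 family members measured in the 4 libraries, CHD8 included, 4 were lower and none higher, against 9.16% and 10.0% of all genes. CHD8 itself was 1 of those 4. In the 6 libraries none of 10, again with CHD8 included, was apart, against 7.53% of all genes.

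Of 70 proliferation genes 6 were lower and none higher in the 4 libraries, where 9.16% of all genes were called lower; in the 6 libraries 3 were apart and lower and 1 apart and higher. Among all genes, 3.66% were apart and higher and 3.87% apart and lower. Of 41 endothelial genes 3 were apart and higher, among them lyve1b, at 5.696 to 6.21 CPM against 6.58 to 8.39 CPM. Of 35 heat shock genes 2 were apart and higher and 3 apart and lower, among them hspb6, at 27.14 to 42.6 CPM against 13.8 to 25.9 CPM. Of 41 complement and acute phase genes 16 were higher and 3 lower in the 4 libraries, against 10.0% and 9.16% of all genes. That list held the name tep1, and tep1, the telomerase-associated gene near chd8, was called lower at −2.15, against −0.52 in the 6 libraries.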
